A study of Mus musculus with 24 samples.

Results

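The genes described here are 10 transcriptional targets of p53 for cell-cycle arrest and feedback in mouse 32D cells, a line from bone marrow that needs interleukin-3 (IL-3) to grow. They were chosen by name: Cdkn1a, Mdm2, Ccng1, Trp53inp1, Aen, Ddb2, Cd80, Zmat3, Phlda3 and Btg2. All 10 were found among the 55414 genes counted and all 10 were among the 16167 genes with enough counts to be tested. The study profiled the lifetime of mRNAs by stopping transcription with actinomycin D, in relation to Nat10, which turns cytidines of RNA into N4-acetylcytidine (ac4C). The genotypes were clone KO1 and clone KO2, both labelled Nat10+/- and Nat10 deficient, and wild type (WT), each sampled after 0, 3, 6 and 9 h in actinomycin D, whose concentration was 0.05 µg/ml. Every group held 2 libraries of polyadenylated RNA, 24 libraries in 12 groups, and all cells grew in 10% serum with mouse IL-3 at 10 ng/ml. Each KO group is a single clone, so that an effect of Nat10 and a property of the clone cannot be told apart, and no untreated culture followed the same hours.

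p53 is a transcription factor that is held at a low level because Mdm2 binds it and marks it for degradation. Stress that blocks Mdm2 lets p53 accumulate and switch on genes that stop the cell cycle, among them Cdkn1a, and genes that restrain p53 again, foremost Mdm2 itself. Actinomycin D at a low dose acts mainly on RNA polymerase I, which makes ribosomal RNA, and the ribosomal proteins Rpl5 and Rpl11 with 5S rRNA can then bind Mdm2. In blood progenitors this arm of the response is known to slow division and, together with death genes, to limit survival.

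The members lie on 9 chromosomes, and their positions are given on GRCm39, from first to last exon, as in the deposited files. Those that act on the cell cycle and growth are Cdkn1a (ENSMUSG00000023067, chromosome 17, 29309950 to 29319701, plus strand), Ccng1 (ENSMUSG00000020326, chromosome 11, 40639379 to 40646138, minus strand), Btg2 (ENSMUSG00000020423, chromosome 1, 134002908 to 134006858, minus strand) and Phlda3 (ENSMUSG00000041801, chromosome 1, 135693857 to 135696874, plus strand). Those that act on p53 itself are Mdm2 (ENSMUSG00000020184, chromosome 10, 117524780 to 117546663, minus strand) and Trp53inp1 (ENSMUSG00000028211, chromosome 4, 11156431 to 11174379, plus strand). The others are Aen (ENSMUSG00000030609, chromosome 7, 78545602 to 78560957, plus strand), Ddb2 (ENSMUSG00000002109, chromosome 2, 91041917 to 91067327, minus strand), Zmat3 (ENSMUSG00000027663, chromosome 3, 32388941 to 32420163, minus strand) and Cd80 (ENSMUSG00000075122, chromosome 16, 38275923 to 38316697, plus strand). Reads were counted without regard to strand. Ddb2 shares 652 of its 2736 exon bases (23.8%) with Acp2 on the opposite strand, and Cdkn1a shares 273 of 3553 (7.68%) with AC167363.2 on the opposite strand, so the counts of these 2 genes are uncertain to that extent.

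Because the members are grouped as p53 targets, the stretches just before their starts were searched for the p53 half-site consensus, a palindromic motif of 10 bases, so that both strands give the same matches; 2 half-sites side by side make a full p53 site. RefSeq windows of 250 bases before to 50 after a start (GRCm38.p6, another build than the counts) were at hand for 7 members; Trp53inp1, Ddb2 and Zmat3 had none. An adjacent pair with up to 2 letters off the consensus was found for Cdkn1a, Ccng1 and Cd80, 3 of the 7, against 0.326% of all 32851 windows. A half-site with no letter off was found for Cdkn1a, Mdm2, Ccng1 and Aen, 4 of the 7, against 8.36% of all windows. A match is a description of letters and does not show binding. The 250 bases before the start are shown for the 4 members with a match there in their first window, with the matches in capitals: the arrest gene Cdkn1a (chr17:29090729-29090978, plus strand), the feedback gene Mdm2 (chr10:117710759-117711008, minus strand), Ccng1 (chr11:40755287-40755536, minus strand) and Cd80 (chr16:38458683-38458932, plus strand).
Cdkn1a: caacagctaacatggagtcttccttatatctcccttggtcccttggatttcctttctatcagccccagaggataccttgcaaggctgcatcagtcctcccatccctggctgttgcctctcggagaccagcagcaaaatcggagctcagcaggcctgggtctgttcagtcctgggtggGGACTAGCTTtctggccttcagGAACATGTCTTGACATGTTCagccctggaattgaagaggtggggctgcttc
Mdm2: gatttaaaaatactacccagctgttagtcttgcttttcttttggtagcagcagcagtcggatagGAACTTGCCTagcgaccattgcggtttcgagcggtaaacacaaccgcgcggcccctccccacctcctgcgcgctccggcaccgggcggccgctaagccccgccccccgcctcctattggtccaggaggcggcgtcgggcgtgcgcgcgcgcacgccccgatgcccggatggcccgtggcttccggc
Ccng1: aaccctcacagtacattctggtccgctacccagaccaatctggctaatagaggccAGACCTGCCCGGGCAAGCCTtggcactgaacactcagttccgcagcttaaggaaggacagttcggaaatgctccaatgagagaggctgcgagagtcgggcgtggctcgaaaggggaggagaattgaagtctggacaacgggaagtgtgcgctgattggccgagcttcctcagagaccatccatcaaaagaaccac
Cd80: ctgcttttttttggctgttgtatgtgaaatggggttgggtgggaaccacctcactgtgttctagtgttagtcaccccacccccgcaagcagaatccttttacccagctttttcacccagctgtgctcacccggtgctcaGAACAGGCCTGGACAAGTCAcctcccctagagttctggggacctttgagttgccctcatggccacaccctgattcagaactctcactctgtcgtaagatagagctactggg
In Cdkn1a the pair lay 51 to 32 bases before the start with 1 letter off, and a further half-site began 73 bases before it; a second Cdkn1a start 2790 bases away had no match in its window. In Ccng1 the pair lay 195 to 176 bases before the start with 1 letter off, and in Cd80 it lay 111 to 92 bases before it with 2 letters off. The Mdm2 window held a single half-site, which began 186 bases before the start.

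Depth was even, at 15361601 to 17338939 gene counts per library, and replicate libraries were close, with a biological coefficient of variation of 0.0206. CPM are counts scaled to a common library total after correction by TMM, which is explained below. At 0 h Nat10, the targeted gene, had 97.7 and 108 CPM in KO1, 99.2 and 95.1 in KO2 and 111 and 113 in WT. It was called lower in KO2 (log2 -0.21, adjusted p = 0.000291), and in KO1 at the margin (log2 -0.12, adjusted p = 0.0486, and 0.635 without KO1 replicate 1 at 0 h); at 9 h it was lower by edgeR in both, at -0.39 in KO1 and -0.44 in KO2. Spike-in RNA, added in equal amount per the labels, gave 3742 to 5780 counts per library in KO1, 5339 to 13774 in KO2 and only 120 to 257 in WT. All levels, those of Nat10 included, are therefore CPM scaled by TMM, which sets libraries against a reference library by a trimmed mean of log ratios. TMM takes most genes as unchanged, whereas most genes were called at 9 h against 0 h. Calls are edgeR quasi-likelihood tests with Benjamini-Hochberg adjustment over all 16167 genes. The lowest myeloid progenitor marker sum was 606 CPM and the highest 1470 CPM, and 9 of 10 markers passed 1 CPM in at least 1 group, Cd34 only in KO2 at 9 h (1.10 CPM) and Mpo only under the drug, while Kit stayed at or near 0. T cell markers summed to at most 0.118 CPM and erythroid markers to between 17.8 and 44.3 CPM. B cell markers summed to between 12.7 and 25.05 CPM at 3 to 9 h, nearly all of it Cd79a, against at most 0.296 CPM at 0 h.

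On the TMM scale, 9 of the 10 p53 targets rose under the drug in every genotype, and Ddb2 rose less in the clones and was not called in WT. At 9 h against 0 h, all 10 members were called higher in KO1 and all 10 in KO2, and 9 of 10 in WT, where Ddb2 was the exception; with spike-in totals as the scale the counts were 10 in KO1, 6 in KO2 and 8 in WT. The background was large: 42.2% of all tested genes were called higher in KO1, 42% in KO2 and 43.2% in WT. The members' median log2 change was 1.64 in KO1, 1.66 in KO2 and 1.77 in WT, beside 0.12 in KO1, 0.094 in KO2 and 0.13 in WT over all genes. The adjusted p of the 9 members other than Ddb2 was at most 1.06e-33 in any genotype. No member was called lower at 9 h in any genotype, beside 38.3% of all genes in KO1, 38.8% in KO2 and 38.5% in WT. The rise was early: at 3 h 9 members in KO1, 10 in KO2 and 9 in WT were already called higher, against 37.9% in KO1, 37.6% in KO2 and 38.6% in WT of all genes. At 6 h the counts were 10 in KO1, 10 in KO2 and 9 in WT, against 40.6% in KO1, 41.5% in KO2 and 42.4% in WT.

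**Figure D1:**
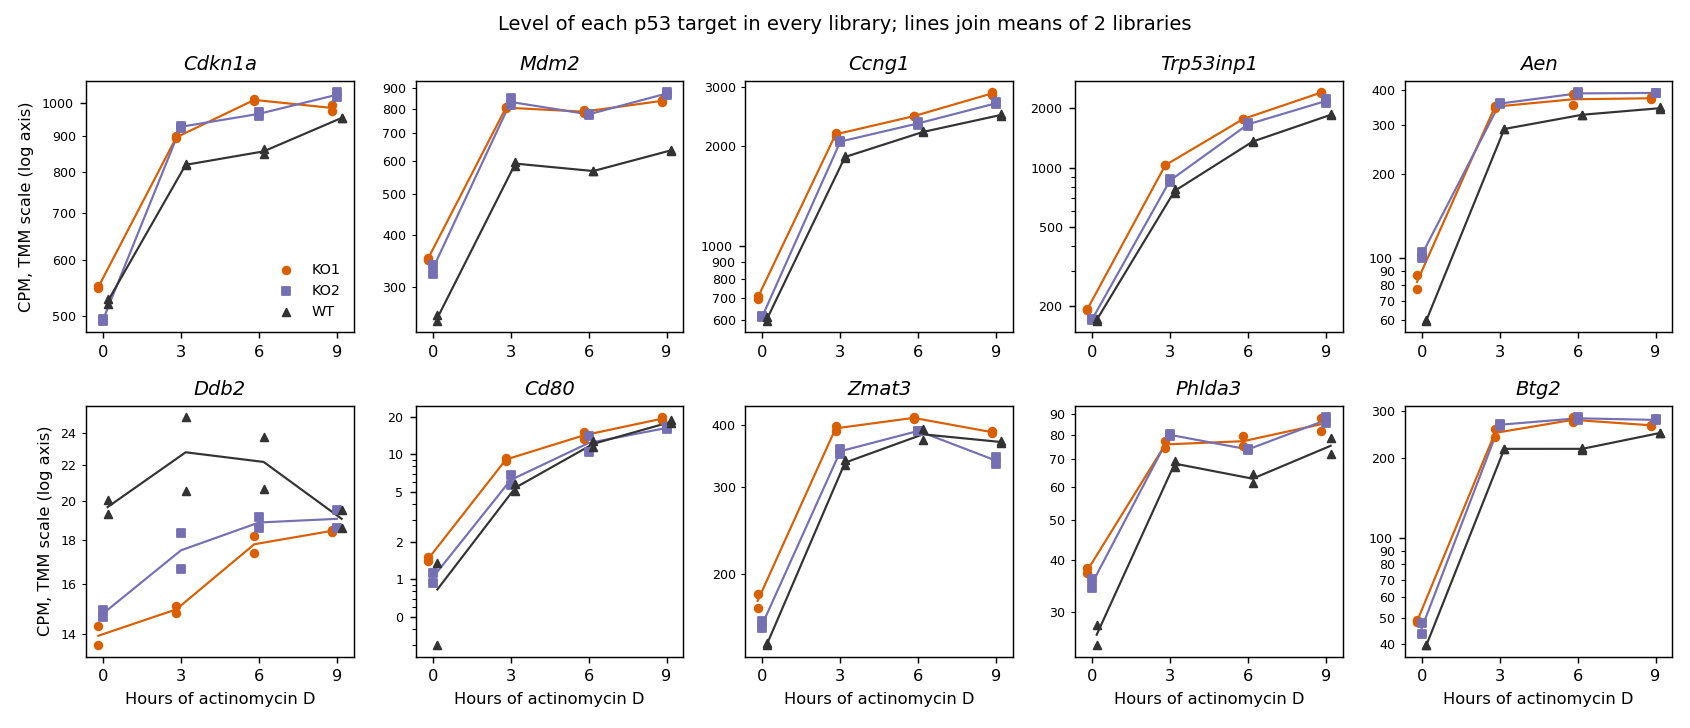
CPM on the TMM scale (log axis) against hours of actinomycin D for each of the 10 members, with a point for each library and lines through the means of 2 libraries, for KO1, KO2 and WT. 9 of the panels climb steeply between 0 and 3 h in every genotype, while Ddb2 stays between 13.6 and 25.0 CPM and starts lower in KO1 and KO2 than in WT.

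Cdkn1a encodes p21, the inhibitor of cyclin-dependent kinases through which p53 stops the cell cycle. Cdkn1a in KO1 had 551 and 548 CPM at 0 h, 892 and 898 at 3 h, 1009 and 1013 at 6 h and 996 and 974 at 9 h. Cdkn1a in KO2 had 496 and 493 CPM at 0 h, 929 and 923 at 3 h, 959 and 973 at 6 h and 1020.4 and 1036 at 9 h. Cdkn1a in WT had 519.9 and 529.6 CPM at 0 h, 819.8 and 817 at 3 h, 862 and 848 at 6 h and 954 and 953 at 9 h. In each genotype the libraries at 3, 6 and 9 h all lay above those at 0 h. Such separation was common over all 16167 tested genes. At 9 h against 0 h, 7702 genes in KO1, 7573 in KO2 and 7753 in WT were higher without overlap. A further 6821 in KO1, 6844 in KO2 and 6846 in WT were lower without overlap. For Cdkn1a KO2 started lowest and ended highest. The log2 change at 9 h was 0.84 (SE 0.019) in KO1, 1.06 (SE 0.019) in KO2 and 0.86 (SE 0.019) in WT, the smallest of the members other than Ddb2. Of all tested genes 68.1% lay below it in KO1, 72.1% in KO2 and 68.1% in WT. On the spike-in scale the change of Cdkn1a was 0.92 in KO1, -0.072 in KO2 (adjusted p = 0.569) and 0.037 in WT (adjusted p = 0.779), so the rise of Cdkn1a in KO2 and WT was not called on that scale.

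Ccng1, Btg2 and Phlda3 also restrain growth. Ccng1 encodes cyclin G1, a partner of the phosphatase PP2A, and was the most abundant member. At 9 h it had 2840.1 and 2883 CPM in KO1, 2699 and 2656 CPM in KO2 and 2483 and 2457 CPM in WT, against 695 and 707 CPM in KO1, 619 and 614 CPM in KO2 and 599 and 614 CPM in WT at 0 h. The rise of Ccng1 was 4.08-fold in KO1, 4.34-fold in KO2 and 4.07-fold in WT, and that of KO2 was called larger than that of WT (log2 0.092, adjusted p = 0.00174). Btg2, an antiproliferative protein that recruits the CCR4-NOT deadenylase to mRNAs, had 267 and 265 CPM in KO1, 278 and 280.1 CPM in KO2 and 249 and 249 CPM in WT at 9 h. At 0 h Btg2 had 49.1 and 48.3 CPM in KO1, 43.8 and 48.0 CPM in KO2 and 39.6 and 39.7 CPM in WT, so that it rose 5.46-fold in KO1, 6.08-fold in KO2 and 6.28-fold in WT. Nearly the whole of that rise was there at 3 h, when the log2 change had reached 96.1% in KO1, 97.7% in KO2 and 92.5% in WT of its 9 h value. Phlda3, a protein with a PH domain that competes with Akt for membrane lipids, had 88.0 and 82.0 CPM in KO1, 85.4 and 88.4 CPM in KO2 and 78.6 and 72.1 CPM in WT at 9 h. Phlda3 at 0 h had 37.3 and 38.3 CPM in KO1, 36.03 and 34.2 CPM in KO2 and 24.9 and 28.0 CPM in WT. The libraries of 9 h lay above those of 0 h for each of these 3 genes in every genotype, and at 0 h both clones lay above WT for Btg2 and Phlda3. Separation between times was common over all genes, as given for Cdkn1a. At 0 h 5142 of the 16167 tested genes in KO1 and 4881 in KO2 also lay above WT without overlap.

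Mdm2, the ubiquitin ligase that closes the feedback loop on p53, combined a strong rise with a steady difference between clones and WT. Mdm2 in KO1 had 353 and 349 CPM at 0 h, 809 and 805 at 3 h, 795 and 784 at 6 h and 844 and 832 at 9 h. Mdm2 in KO2 had 339.7 and 323 CPM at 0 h, 849 and 817 at 3 h, 777 and 779 at 6 h and 868 and 878 at 9 h. Mdm2 in WT had 249 and 257 CPM at 0 h, 586 and 599 at 3 h, 569 and 569 at 6 h and 640.0 and 636 at 9 h. At every time all 4 clone libraries lay above both WT libraries, with no overlap. Such separation was common at single times. At 0 h 5142 of the 16167 tested genes were higher and 4396 lower without overlap in KO1 over WT. In KO2 over WT they numbered 4881 and 4670. How many genes stayed separated at all times was not counted. The 9 h change of Mdm2 was 2.39-fold in KO1, 2.63-fold in KO2 and 2.52-fold in WT. The share of that log2 change reached by 3 h was 95.7% in KO1, 95.2% in KO2 and 92.1% in WT. On the spike-in scale it was still higher at 9 h than at 0 h, by 1.33 log2 in KO1, 0.27 in KO2 and 0.51 in WT.

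Trp53inp1, a stress-induced protein that enhances p53 activity, kept climbing through 9 h. Trp53inp1 in KO1 had 191 and 194 CPM at 0 h, 1025 and 1029 at 3 h, 1759 and 1757 at 6 h and 2389 and 2392 at 9 h. Trp53inp1 in KO2 had 171 and 171 CPM at 0 h, 870.2 and 849 at 3 h, 1684 and 1618 at 6 h and 2208 and 2125 at 9 h. Trp53inp1 in WT had 169 and 172 CPM at 0 h, 778 and 745 at 3 h, 1338 and 1365 at 6 h and 1854 and 1834 at 9 h. At each time both libraries of a genotype lay above those of the time before. It ended 12.4-fold higher in KO1, 12.7-fold higher in KO2 and 10.8-fold higher in WT than at 0 h, and 91.8% of all tested genes lay below it in WT. At 3 h it had reached 66.5% of its 9 h log2 change in KO1, 63.6% in KO2 and 62.9% in WT.

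Aen, a nuclease that acts in apoptosis, differed between all genotypes before the drug. Aen in KO1 had 86.9 and 77.1 CPM at 0 h, 346 and 351 at 3 h, 387 and 354 at 6 h and 371 and 377 at 9 h. Aen in KO2 had 104.6 and 100.3 CPM at 0 h, 357 and 359 at 3 h, 392 and 386 at 6 h and 389.6 and 392 at 9 h. Aen in WT had 59.8 and 59.5 CPM at 0 h, 289.8 and 290.4 at 3 h, 326 and 327 at 6 h and 342 and 347 at 9 h. The groups did not overlap at 0 h, with KO2 highest and WT lowest. Between clones and WT such separation was common over all genes, as given for Mdm2. In KO2 over KO1 at 0 h 3773 of the 16167 tested genes were higher and 4669 lower without overlap. By 9 h the clones stood only slightly above WT for Aen. The change at 9 h was accordingly 4.56-fold in KO1, 3.81-fold in KO2 and 5.77-fold in WT. Zmat3, a zinc finger protein that binds RNA and steers splicing, behaved in part alike. It had 386 and 389 CPM in KO1, 334 and 345 CPM in KO2 and 369 and 371 CPM in WT at 9 h. At 0 h Zmat3 had 182 and 171 CPM in KO1, 156 and 161 CPM in KO2 and 144 and 146 CPM in WT. The clones were higher than WT at 0 h, whereas at 9 h KO2 was the lowest of the genotypes.

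Ddb2, which recognises ultraviolet lesions in DNA, was the member that did not follow the others. Activation of DDB2 by p53 is known best from human cells. Ddb2 in KO1 had 13.6 and 14.3 CPM at 0 h, 15.1 and 14.8 at 3 h, 18.2 and 17.4 at 6 h and 18.4 and 18.5 at 9 h. Ddb2 in KO2 had 14.9 and 14.6 CPM at 0 h, 16.7 and 18.4 at 3 h, 18.6 and 19.2 at 6 h and 18.6 and 19.5 at 9 h. Ddb2 in WT had 19.3 and 20.04 CPM at 0 h, 20.5 and 25.0 at 3 h, 23.7 and 20.7 at 6 h and 19.5 and 18.6 at 9 h. At 0 h both clones lay below both WT libraries, a separation common over all genes, as given for Mdm2. At 9 h the 3 genotypes were close for Ddb2. The change at 9 h was 0.40 log2 (SE 0.11, adjusted p = 0.000546) in KO1, 0.37 (SE 0.11, adjusted p = 0.00126) in KO2 and -0.045 (SE 0.10, adjusted p = 0.683) in WT. On the spike-in scale the value for Ddb2 was 0.48 in KO1, and it turned to -0.76 in KO2 and -0.88 in WT. The rise in KO2 at 3 h (log2 0.25, adjusted p = 0.0408) was not called by DESeq2 (adjusted p = 0.126), nor without KO2 replicate 1 or 2 at 0 h or replicate 2 at 3 h (0.17 to 0.26, adjusted p = 0.0835 to 0.268). In WT the value of Ddb2 was called higher at 3 h without WT replicate 1 of that time (0.35, adjusted p = 0.00761) and at 6 h without WT replicate 2 of that time (0.27, adjusted p = 0.0386).

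Cd80, a ligand of CD28 and CTLA-4 on antigen-presenting cells, was the rarest member at 0 h and rose about as far as Trp53inp1 or further. Cd80 in KO1 had 1.39 and 1.51 CPM at 0 h, 8.82 and 9.37 at 3 h, 15.1 and 13.3 at 6 h and 18.7 and 19.9 at 9 h. Cd80 in KO2 had 1.13 and 0.935 CPM at 0 h, 5.70 and 6.77 at 3 h, 14.1 and 10.5 at 6 h and 16.1 and 16.4 at 9 h. Cd80 in WT had 1.36 and 0.296 CPM at 0 h, 5.75 and 5.07 at 3 h, 11.4 and 12.9 at 6 h and 18.7 and 17.8 at 9 h. All libraries at 3 h and later lay above all libraries at 0 h, and separation between times was common over all genes, as given for Cdkn1a. The change at 9 h was 3.73 log2 (SE 0.19) in KO1, 3.97 (SE 0.21) in KO2 and 4.45 (SE 0.21) in WT, and the share of tested genes below it was 93.1% in KO1, 93.8% in KO2 and 94.8% in WT. Trp53inp1 was at 3.63 (SE 0.022) in KO1, 3.66 (SE 0.023) in KO2 and 3.44 (SE 0.023) in WT, so in the clones the order of Cd80 and Trp53inp1 lies within or near the SE. Precision at 0 h was limited by counts of 21 and 24 in KO1, 18 and 15 in KO2 and 23 and 5 in WT.

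Cd80 also marks macrophages and dendritic cells, and some markers of those cells moved with time. Of the 8 markers listed 4 exceeded 1 CPM, and their sum at 9 h was 262 CPM in KO1, 219 CPM in KO2 and 250.1 CPM in WT, against 53.04 CPM in KO1, 37.7 CPM in KO2 and 99.5 CPM in WT at 0 h. Cd68, a lysosomal membrane protein, made up most of it, with 217 CPM in KO1, 187 CPM in KO2 and 176 CPM in WT at 9 h. Csf1r, the receptor for the macrophage growth factor, was at 30.4 CPM in KO1, 26.5 CPM in KO2 and 16.8 CPM in WT at 9 h, against 0.354 CPM in KO1, 0.125 CPM in KO2 and 0.266 CPM in WT at 0 h. Adgre1, which encodes the macrophage antigen F4/80, took another course, with 13.4 CPM in KO1, 4.91 CPM in KO2 and 56.6 CPM in WT at 9 h, against 22.1 CPM in KO1, 11.7 CPM in KO2 and 49.1 CPM in WT at 0 h. In WT Adgre1 had stood at 101 CPM at 3 h and 83.1 CPM at 6 h. Cd86, the partner ligand of Cd80, was at 0 counts in every library, and H2-Aa, H2-Ab1 and Mrc1 were at or near 0. Whether these markers have a part in the rise of Cd80 was not tested, and in bulk RNA more cells of a type and more RNA per cell cannot be told apart.

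**Figure D2:**
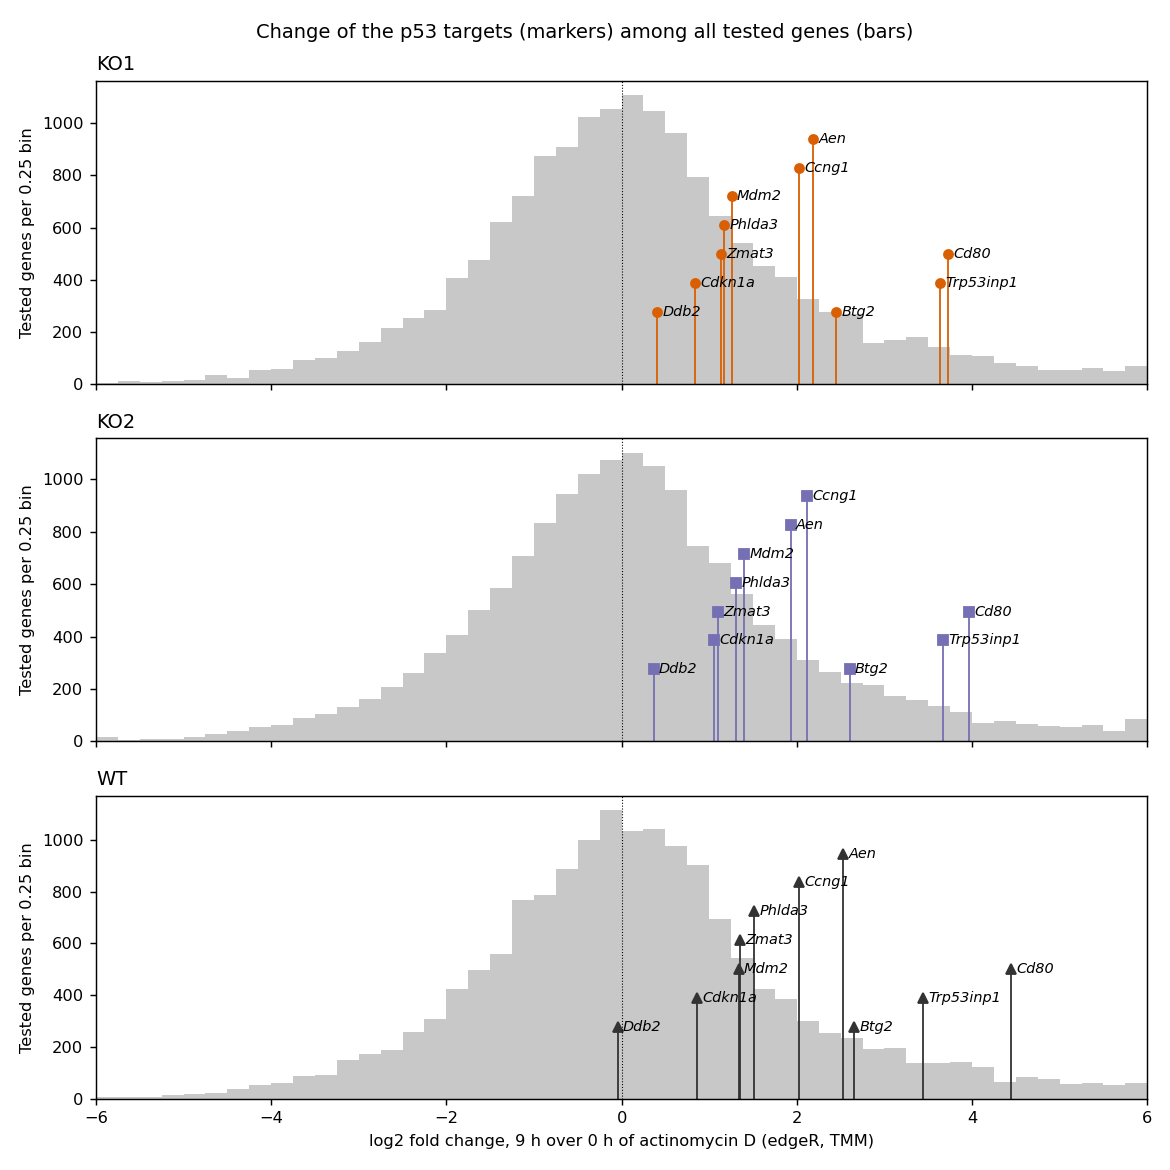
Distribution of the log2 change at 9 h over 0 h across the 16167 tested genes (bars, bins of 0.25 between -6 and 6; genes beyond are not drawn) in KO1, KO2 and WT, with the 10 members marked. Ddb2 lies nearest to the centre, and the other 9 members lie to its right, from Cdkn1a at 0.84 in KO1, 1.06 in KO2 and 0.86 in WT up to Cd80 at 3.73 in KO1, 3.97 in KO2 and 4.45 in WT.

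After 3 h most members went on gaining on the TMM scale, by amounts that ranged widely. At 9 h against 3 h, 9 members were called higher and 0 lower in KO1, 7 and 1 in KO2, and 9 and 1 in WT. Of all genes 32.1% were called higher and 33% lower in KO1, 32.5% and 33.7% in KO2, and 34.2% and 31.6% in WT. The late gains were largest for Trp53inp1, at 1.22 log2 in KO1, 1.33 in KO2 and 1.28 in WT, for Cd80, at 1.08 in KO1, 1.38 in KO2 and 1.75 in WT, and for Ccng1, at 0.41 in KO1, 0.38 in KO2 and 0.42 in WT. Mdm2 gained 0.054 in KO1, 0.067 in KO2 and 0.11 in WT over the same 6 hours, called in each genotype (adjusted p = 0.0144 in KO1, 0.00214 in KO2 and 7.42e-06 in WT). The Mdm2 call was lost in KO1 without KO1 replicate 2 at 3 h or replicate 1 at 9 h (0.051 and 0.044) and in KO2 without KO2 replicate 2 at 3 h (0.040). Single libraries also ended the calls of Phlda3 in KO1 (without KO1 replicate 1 at 3 or 9 h), in KO2 (without KO2 replicate 1 or 2 at 3 h or replicate 2 at 9 h) and in WT (without WT replicate 1 at 3 or 9 h), with values of 0.078 to 0.13 log2 left. In KO1 the calls of Btg2 (0.041, without KO1 replicate 1 at 3 h) and Ddb2 (0.29, without KO1 replicate 2 at 3 h) were lost as well. The lower calls were Zmat3 in KO2 at -0.063 (adjusted p = 0.0308) and Ddb2 in WT at -0.26 (adjusted p = 0.0193). The Ddb2 value was -0.11 without WT replicate 2 at 3 h and -0.22 without WT replicate 2 at 9 h, neither called. Zmat3 was 0.020 with DESeq2, and it was not called without KO2 replicate 1 at 3 h (-0.046) or at 9 h (-0.040). The late course depended on the scale: with spike-in totals 9 members were called higher and none lower in KO1, 2 higher and 7 lower in KO2, and 2 higher and 1 lower in WT. Of all genes 37.8% in KO1, 13.9% in KO2 and 17.5% in WT were then called higher and 19.5% in KO1, 47.6% in KO2 and 39.5% in WT lower. Trp53inp1 and Cd80 were the 2 members still called higher in KO2 and in WT.

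Spike-in totals moved the whole distribution and not the members against it. The shift of a 9 h change was 0.077 log2 in KO1, -1.13 in KO2 and -0.83 in WT, nearly the same for every gene of a genotype, so that a positive value smaller than the shift turns negative on that scale. On that scale 41.3% of all genes were called higher and 33.6% lower at 9 h in KO1, 16.6% and 63% in KO2, and 21.1% and 55.8% in WT. The members' median was 1.72 in KO1, 0.54 in KO2 and 0.94 in WT, beside 0.20 in KO1, -1.03 in KO2 and -0.70 in WT over all genes. On the spike-in scale the 6 members called higher in KO2 at 9 h were Mdm2, Ccng1, Trp53inp1, Aen, Cd80 and Btg2, and Ddb2 was the 1 member called lower in KO2 and in WT. At 6 h in KO2, 5 members were called higher and 1 lower on that scale, beside 78.2% of all genes called in either direction. The WT values rest on at most 257 spike-in counts per library.

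**Figure D3:**
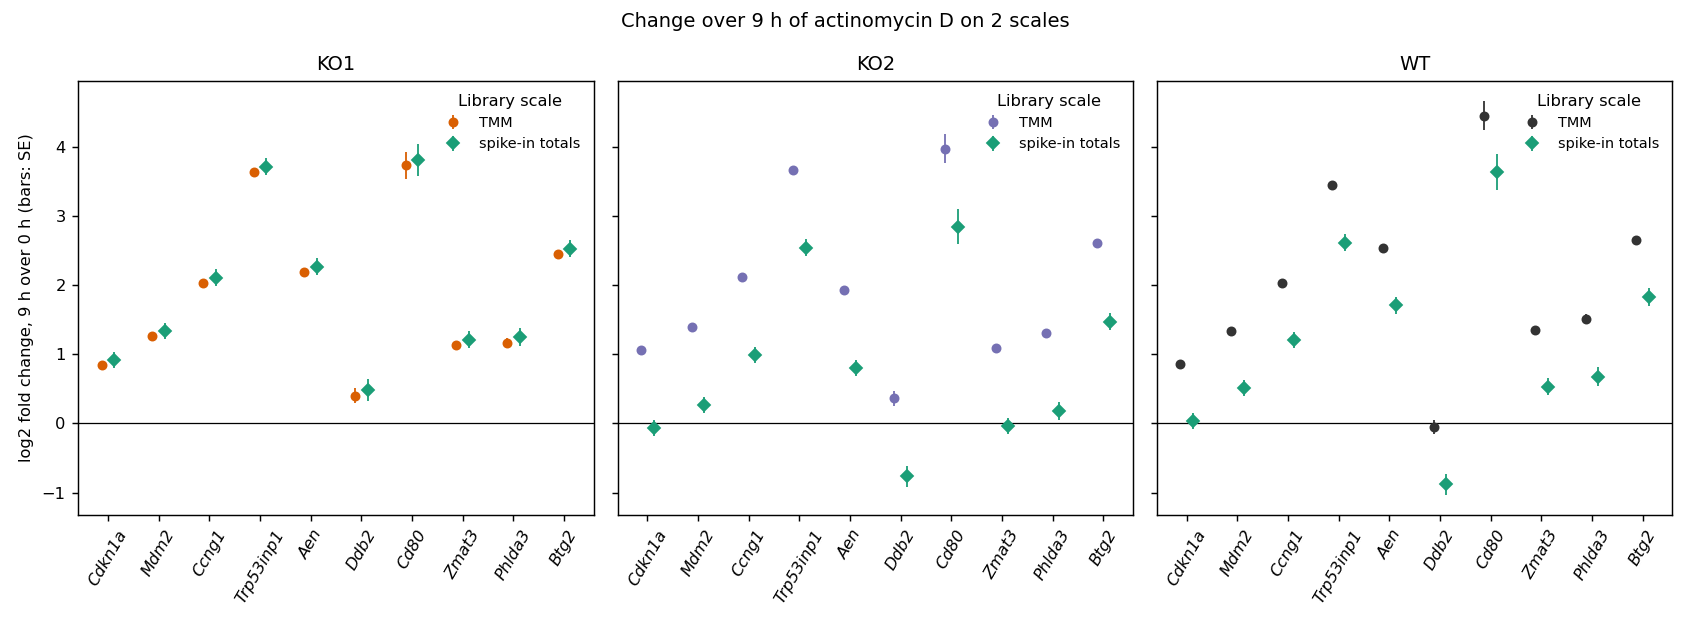
Log2 change at 9 h over 0 h of each member in KO1, KO2 and WT on the TMM scale and with spike-in totals as library sizes, with SE bars. The members keep their order when the scale changes, and in KO2 and WT they move down together, which takes Cdkn1a to -0.072 in KO2 and 0.037 in WT.

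Per base of exon, the members spanned a wide range before the drug. In WT at 0 h Ccng1 stood at 173 ± 3.08 RPKM, which is CPM per kilobase of exon (SD, n = 2), Cdkn1a at 148 ± 1.94, Mdm2 at 49.8 ± 1.04 and Trp53inp1 at 26.3 ± 0.355. Phlda3, Btg2, Zmat3, Aen and Ddb2 followed in that order between 17.0 and 7.19 RPKM, and Cd80 was last at 0.224 ± 0.204. At 9 h Trp53inp1 had passed Cdkn1a in every genotype, with 369 ± 0.302 against 277 ± 4.41 RPKM in KO1, 335 ± 9.11 against 289 ± 3.08 in KO2 and 285 ± 2.23 against 268 ± 0.128 in WT. Ccng1 stayed first, at 815 ± 8.72 RPKM in KO1, 762 ± 8.69 in KO2 and 703 ± 5.18 in WT at 9 h. Cd80 stayed last in all 12 groups. Neighbours in the order lay further apart than their spread except Zmat3 and Aen in KO1 at 0 h, Aen and Btg2 in KO2 at 0 h, and Mdm2 and Trp53inp1 at 3 h in KO1 and in WT.

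The clones were compared with WT at each time, which addresses how the level of the p53 targets goes with the Nat10+/- label; spike-in totals were not used between genotypes. In KO1 the members called higher than in WT numbered 8 at 0 h, 9 at 3 h, 8 at 6 h and 8 at 9 h, against 15%, 20.1%, 18.4% and 19.3% of all genes, and those called lower numbered 1, 1, 1 and 0, against 12.3%, 16.7%, 17.4% and 15.1%. In KO2 the members called higher numbered 5 at 0 h, 8 at 3 h, 7 at 6 h and 7 at 9 h, against 15.1%, 21.1%, 17.5% and 18.7%, and those called lower numbered 2, 1, 0 and 1, against 14.3%, 17.6%, 16.8% and 16.5%. The member count in KO1 at 9 h fell to 4 without KO1 replicate 1 or WT replicate 2 of that time, with Phlda3, Btg2, Zmat3 and Cdkn1a no longer called. The differences were small beside the changes under the drug. Mdm2 had a steady one, with log2 values of 0.47, 0.44, 0.47 and 0.39 in KO1 over WT at 0, 3, 6 and 9 h and 0.39, 0.49, 0.45 and 0.45 in KO2 over WT (SE 0.021 to 0.025, adjusted p at most 4.49e-26). Phlda3 and Btg2 were called higher in both clones at all 4 times, with Phlda3 at 0.51, 0.15, 0.30 and 0.17 in KO1 and 0.41, 0.23, 0.23 and 0.21 in KO2. Btg2 over WT stood at 0.30, 0.20, 0.36 and 0.095 in KO1 and 0.21, 0.30, 0.38 and 0.16 in KO2. Several of these calls rest on 1 library. Phlda3 was not called in KO1 at 3 h without KO1 replicate 2 or WT replicate 1 of that time (adjusted p = 0.186 and 0.146), nor in KO2 at 9 h without WT replicate 2 of that time (adjusted p = 0.0746). Btg2 was not called in KO2 at 0 h without KO2 replicate 2 of that time (0.14, adjusted p = 0.137).

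Aen and Ddb2 began far from WT and approached it. Aen over WT was 0.46, 0.27, 0.18 and 0.12 in KO1 and 0.78, 0.30, 0.25 and 0.18 in KO2 at 0, 3, 6 and 9 h, called at every time (adjusted p at most 0.00033). Ddb2 was below WT, at -0.50, -0.61, -0.32 and -0.046 in KO1, called at 0, 3 and 6 h, and -0.41, -0.38, -0.23 and 0.00 in KO2, called at 0 and 3 h. For Ddb2 the KO1 call at 6 h was lost without WT replicate 1 (-0.21, adjusted p = 0.209) or KO1 replicate 2 of that time (-0.28, adjusted p = 0.0843). The KO2 call of Ddb2 at 3 h was lost without WT replicate 2 of that time (-0.23, adjusted p = 0.184), and the KO2 value at 6 h was called without WT replicate 2 of that time (-0.33, adjusted p = 0.0311). Trp53inp1 moved the other way: it was closest to WT at 0 h and further above it later, at 0.18, 0.43, 0.38 and 0.37 in KO1 and 0.0055, 0.17, 0.29 and 0.23 in KO2, where the 0 h value did not pass the test (adjusted p = 0.937). Ccng1 over WT was 0.21, 0.23, 0.16 and 0.21 in KO1 and 0.025, 0.15, 0.085 and 0.12 in KO2. Cdkn1a was 0.067, 0.13, 0.24 and 0.047 in KO1 and -0.087, 0.18, 0.18 and 0.11 in KO2, so that KO2 was called lower than WT at 0 h and higher later. The KO1 call of Cdkn1a at 0 h was lost without replicate 1 of KO1 or of WT at that time (adjusted p = 0.0596 and 0.12), and at 9 h without KO1 replicate 1 (0.030) or either WT library of that time. Zmat3 in KO2 went through 0.13, 0.076, 0.023 and -0.13, called higher at 0 and 3 h and lower at 9 h, beside 0.29, 0.23, 0.11 and 0.066 in KO1. The KO2 call of Zmat3 at 3 h was lost without replicate 1 of KO2 or of WT at that time (adjusted p = 0.168 for each). Zmat3 lost its KO1 call at 6 h without WT replicate 2 of that time (0.074), and that at 9 h without any 1 of the 4 libraries (0.060 to 0.073).

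Cd80 was called different from WT only in KO1 at 3 h (log2 0.75, SE 0.17, adjusted p = 0.000143). At 0 h its values were 0.80 in KO1 (adjusted p = 0.103) and 0.31 in KO2 (adjusted p = 0.624), and the WT libraries held 23 and 5 counts. Without the first of these WT libraries they became 2.27 (adjusted p = 0.00118) and 1.78 (adjusted p = 0.0224), so 1 library decides whether Cd80 differs before the drug.

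**Figure D4:**
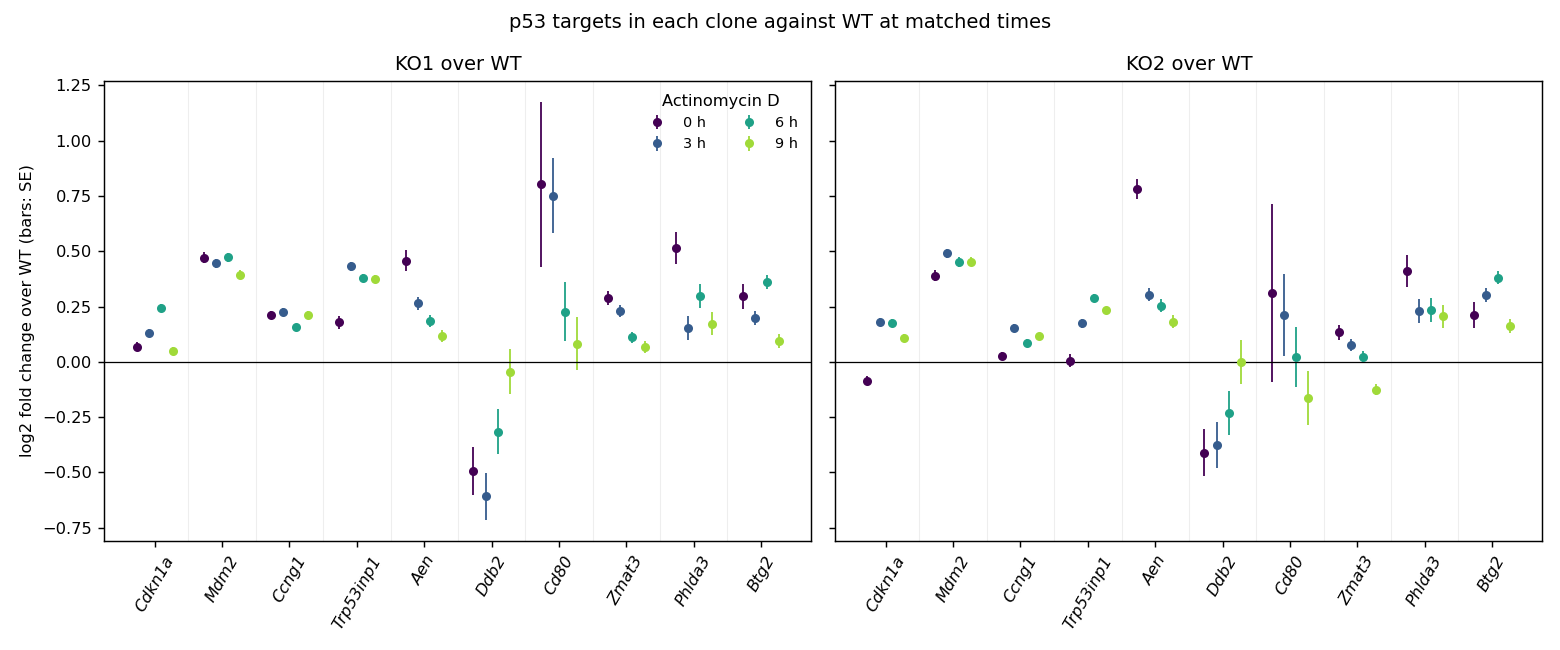
Log2 difference of KO1 over WT and of KO2 over WT for each member at 0, 3, 6 and 9 h (colours), with SE bars; 0 means equal to WT. Mdm2 keeps about the same distance at all times, the Aen values shrink towards 0 with time, and Ddb2 climbs from below 0 to -0.046 in KO1 and 0.00 in KO2.

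Whether the response itself differed was tested as clone minus WT for the change from 0 h. In KO1, 3 of 10 members differed at 3 h and 6 at 9 h, beside 25.8% and 27.1% of all genes; in KO2, 5 differed at 3 h and 6 at 9 h, beside 24.7% and 25.9%. Over these 4 tests 9 of 10 members differed at least once, beside 47.3% of all genes. Trp53inp1 gained more in both clones, by 0.25 log2 at 3 h and 0.20 at 9 h in KO1 and by 0.17 and 0.23 in KO2. Aen gained less in both, at -0.19 and -0.34 in KO1 and -0.48 and -0.60 in KO2, but its KO1 value at 3 h was -0.10 and not called without KO1 replicate 1 at 0 h (adjusted p = 0.264). The 9 h response of Mdm2 was not called different from that of WT by edgeR, at -0.078 in KO1 (adjusted p = 0.0635) and 0.062 in KO2 (adjusted p = 0.164); the KO2 value was called with DESeq2 (adjusted p = 0.0224) and without KO2 replicate 1 at 0 h (0.099, adjusted p = 0.0343), and the KO1 value without WT replicate 2 at 0 h (-0.0998, adjusted p = 0.0404). Cdkn1a gained more in KO2 than in WT, by 0.27 at 3 h and 0.20 at 9 h, while in KO1 it was 0.062 (adjusted p = 0.0925) and -0.021 (adjusted p = 0.645).

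The clones carry the same genotype label and were set against each other in the same way. Of the 10 members 6 differed between KO2 and KO1 at 0 h, 5 at 3 h, 4 at 6 h and 5 at 9 h, beside 16.8%, 12%, 13.4% and 12.4% of all genes. Ccng1, Trp53inp1 and Zmat3 were lower in KO2 at all 4 times, with the largest differences at -0.19 log2 for Ccng1 at 0 h, -0.26 for Trp53inp1 at 3 h and -0.19 for Zmat3 at 9 h. The Zmat3 call was lost at 0 h without KO1 replicate 1 of that time (adjusted p = 0.0512), and at 6 h without KO1 replicate 1, KO1 replicate 2 or KO2 replicate 2 of that time (adjusted p = 0.0513, 0.101 and 0.0614). Aen was higher in KO2 at 0 h (log2 0.32, SE 0.043). Mdm2 differed by -0.082 at 0 h and 0.059 at 9 h, small beside the distance of both clones from WT. The 0 h call was lost without KO1 replicate 1 or KO2 replicate 2 of that time and the 9 h call without any 1 of the 4 libraries (0.049 to 0.069). Member counts between the clones rest on single libraries after 0 h. The 5 members at 3 h became 3 without KO2 replicate 1 of that time. The 4 at 6 h became 2 without KO1 replicate 2 of that time, when Zmat3 and Cdkn1a were no longer called. The 5 at 9 h became 3 without KO1 replicate 2 or KO2 replicate 2 of that time. At 9 h 2010 of all genes were called by edgeR and 1333 by DESeq2.

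Among the regulators of p53, Trp53 and Mdm4 were lower at 9 h than at 0 h in every genotype on the TMM scale. Trp53, the gene of p53 itself, had 261 and 266 CPM in KO1, 279 and 272 in KO2 and 222 and 220.3 in WT at 9 h, against 310.2 and 307 in KO1, 321 and 313 in KO2 and 261 and 254 in WT at 0 h. Its log2 changes at 9 h on the TMM scale were -0.23 in KO1, -0.20 in KO2 and -0.22 in WT, with the clones above WT at both times. With spike-in totals they were -0.15 in KO1, -1.33 in KO2 and -1.04 in WT. The KO1 value was not called by edgeR on that scale (adjusted p = 0.238). At 3 h Trp53 was not called in any genotype by edgeR, at 0.022 in KO1, 0.037 in KO2 and -0.051 in WT, though DESeq2 called the WT value (-0.080, adjusted p = 0.0201). Mdm4, the partner of Mdm2 that blocks p53, had 239.8 and 238 CPM in KO1, 216 and 219.8 in KO2 and 202 and 207 in WT at 9 h, against 811 and 824 in KO1, 818 and 816 in KO2 and 765 and 768 in WT at 0 h. It fell where Mdm2 rose, with log2 changes of -1.78 in KO1, -1.91 in KO2 and -1.91 in WT. Ppm1d, a phosphatase that is both a target and an inhibitor of p53, was higher at 9 h on the TMM scale, by 0.29 in KO1, 0.26 in KO2 and 0.65 in WT. These values turned to -0.87 in KO2 and -0.19 in WT on the spike-in scale. At 3 h Ppm1d had been called lower by edgeR in KO1 (-0.27, adjusted p = 0.00207). Its 3 h values of -0.13 in KO2 and -0.16 in WT were not called. Of 19 tested p53 regulators 13 were called lower and 4 higher at 9 h in KO1, 13 and 4 in KO2, and 14 and 5 in WT; with spike-in totals the counts were 12 and 4 in KO1, 17 and 0 in KO2, and 16 and 0 in WT. Of all genes 38.3% were called lower and 42.2% higher in KO1, 38.8% and 42% in KO2, and 38.5% and 43.2% in WT. With spike-in totals the shares were 33.6% lower and 41.3% higher in KO1, 63% and 16.6% in KO2, and 55.8% and 21.1% in WT. The median of the regulators at 9 h was -1.16 log2 in KO1, -1.21 in KO2 and -1.21 in WT. The largest called falls in WT were those of Huwe1, a ubiquitin ligase (-2.88 in KO1, -3.14 in KO2 and -3.05 in WT), Usp7, which takes ubiquitin off Mdm2 and p53 (-2.62 in KO1, -2.69 in KO2 and -2.93 in WT), and Hipk2, a kinase of p53 (-2.61 in KO1, -2.997 in KO2 and -2.92 in WT). Among those called higher were Sirt1, a deacetylase of p53 (0.86 in KO1, 0.87 in KO2 and 1.01 in WT), and Topors, a ubiquitin and SUMO ligase (0.52 in KO1, 0.48 in KO2 and 0.62 in WT), both below the spike-in shift in KO2 and Topors at -0.21 in WT on the spike-in scale.

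Other targets of p53 were set beside the members as a list of 41 genes, of which 37 were tested. At 9 h against 0 h, 27 were called higher and 8 lower in KO1, 28 and 8 in KO2, and 27 and 8 in WT; with spike-in totals they were 27 and 4 in KO1, 16 and 13 in KO2, and 19 and 12 in WT. The shares of all genes are those given beside the regulators. Their median log2 change was 1.47 in KO1, 1.32 in KO2 and 1.15 in WT, below that of the members. The largest rises in WT were Pmaip1, which encodes the death factor Noxa (3.61 in KO1, 3.94 in KO2 and 3.82 in WT), Ercc5, a repair endonuclease (2.48 in KO1, 2.52 in KO2 and 2.76 in WT), and Eda2r, a receptor of the tumour necrosis factor family (2.26 in KO1, 2.20 in KO2 and 2.72 in WT). The largest falls were Apaf1, the core of the apoptosome (-1.22 in KO1, -1.40 in KO2 and -1.52 in WT), Bbc3, which encodes Puma (-1.11 in KO1, -1.02 in KO2 and -0.68 in WT), and Sfn, which encodes the 14-3-3 sigma protein (-0.74 in KO1, -0.86 in KO2 and -0.61 in WT). Death genes of the p53 response were found on both sides. Against WT, the numbers of other targets called higher and lower in KO1 were 17 and 4 at 0 h, 20 and 1 at 3 h, 23 and 1 at 6 h, 21 and 2 at 9 h. In KO2 they were 17 and 5 at 0 h, 21 and 2 at 3 h, 23 and 1 at 6 h, 19 and 2 at 9 h. Of all genes 15% to 21.1% were called higher and 12.3% to 17.6% lower in these comparisons.

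A further list held 20 genes of mitosis that p21 represses through the DREAM complex, the route by which Cdkn1a lowers cell-cycle genes. At 9 h against 0 h, 8 were called higher and 11 lower in KO1, 9 and 10 in KO2, and 9 and 9 in WT. With spike-in totals the counts were 7 and 8 in KO1, 3 and 15 in KO2, and 3 and 12 in WT. Of all genes 42.2% were called higher and 38.3% lower in KO1, 42% and 38.8% in KO2, and 43.2% and 38.5% in WT. With spike-in totals the shares were 41.3% and 33.6% in KO1, 16.6% and 63% in KO2, and 21.1% and 55.8% in WT. Cdc20, which activates the anaphase ligase, was higher (2.03 in KO1, 2.30 in KO2 and 2.04 in WT), as were the mitotic kinesin Kif20a (1.80 in KO1, 1.997 in KO2 and 1.99 in WT) and the phosphatase Cdc25c (1.74 in KO1, 1.91 in KO2 and 1.78 in WT). Top2a, the topoisomerase of dividing cells, was lower (-2.32 in KO1, -2.05 in KO2 and -2.01 in WT), as were Bub1b, a checkpoint kinase (-0.99 in KO1, -0.82 in KO2 and -1.03 in WT), and Mybl2, a mitotic transcription factor (-1.25 in KO1, -0.88 in KO2 and -0.77 in WT). Against WT, 3 higher and 3 lower were called in KO1 at 0 h, 0 higher and 16 lower at 3 h, 1 higher and 15 lower at 6 h and 0 higher and 13 lower at 9 h. In KO2 over WT there were 6 higher and 1 lower at 0 h, 0 higher and 13 lower at 3 h, 3 higher and 5 lower at 6 h and 6 higher and 2 lower at 9 h. The 3 h deficit, 16 of 20 genes in KO1 and 13 of 20 in KO2, stood beside 16.7% and 17.6% of all genes called lower.

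The last list held 9 genes of ribosomal and nucleolar proteins tied to the binding of Mdm2 under nucleolar stress. Of their mRNAs most were called higher at 3 h and fewer at 9 h on the TMM scale. With spike-in totals the 3 h majority was gone in KO2. At 3 h against 0 h, 7 were called higher and 2 lower in KO1, 8 and 1 in KO2, and 7 and 0 in WT. Their median log2 change was 0.54 in KO1, 0.56 in KO2 and 0.75 in WT. Of all genes 37.9% were called higher and 33.4% lower at 3 h in KO1, 37.6% and 33.3% in KO2, and 38.6% and 33.5% in WT. With spike-in totals the 3 h counts were 5 and 2 in KO1, 1 and 3 in KO2, and 5 and 2 in WT. All genes on that scale gave 27.1% higher and 34.5% lower in KO1, 13.1% and 52.7% in KO2, and 17.4% and 46.2% in WT. From 3 h to 9 h, 1 was called higher and 7 lower in KO1, 1 and 7 in KO2, and 1 and 5 in WT. Over those hours 32.1% of all genes were called higher and 33% lower in KO1, 32.5% and 33.7% in KO2, and 34.2% and 31.6% in WT. Against WT at 9 h, 2 of the list were called higher and 6 lower in KO1 and 2 and 7 in KO2. Of all genes 19.3% were then called higher and 15.1% lower in KO1, and 18.7% and 16.5% in KO2. At 9 h against 0 h, 4 were called higher and 5 lower in KO1, 4 and 5 in KO2, and 6 and 3 in WT. With spike-in totals the counts were 4 and 3 in KO1, 1 and 8 in KO2, and 1 and 6 in WT. Of all genes 42.2% were called higher and 38.3% lower in KO1, 42% and 38.8% in KO2, and 43.2% and 38.5% in WT. The shares with spike-in totals are those given beside the regulators. Hexim1, an inhibitor of the elongation factor P-TEFb, was the highest (2.79 in KO1, 2.83 in KO2 and 2.77 in WT). The ribosomal proteins Rpl23 (0.47 in KO1, 0.57 in KO2 and 0.83 in WT) and Rps7 (0.47 in KO1, 0.52 in KO2 and 0.79 in WT) gained less, below the spike-in shift in KO2, and Rps7 was at -0.035 in WT on the spike-in scale. Npm1 (-1.02 in KO1, -1.13 in KO2 and -1.23 in WT) and Ncl (-0.70 in KO1, -0.66 in KO2 and -0.39 in WT), the abundant nucleolar proteins, and Nop53 (-0.23 in KO1, -0.14 in KO2 and -0.12 in WT) were lower.

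The courses of Cdkn1a and Mdm2 over the 12 group means were compared with those of 9567 genes by Pearson's correlation of log2 CPM. This is a description of points that share genotypes and times. The 9567 genes had a mean of at least 5 CPM over all 24 libraries. Genes with predicted names (such as Gm and Rik) and unnamed identifiers were left out. The genes most like Cdkn1a were Slc35e4 (0.995), Map3k6 (0.994), Tor1b (0.994), Kif3c (0.993) and Cebpe (0.993), and the nearest member was Ccng1 in rank 9 (0.990). Those most like Mdm2 were Pidd1 (0.993), Tsen54 (0.991), Pak6 (0.988), Gtse1 (0.987) and Nol11 (0.986), with Phlda3 the nearest member in rank 6 (0.985). Ddb2 stood apart, with 0.403 to Cdkn1a in rank 3393 and 0.201 to Mdm2 in rank 3799.

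Transcripts of the members were compared for features that bear on mRNA lifetime, on the GENCODE M21 transcript with the longest coding sequence. The pentamer ATTTA, the core of AU-rich decay elements, was counted on the transcribed strand of the 3′ untranslated region. Mdm2, Ccng1, Trp53inp1 and Zmat3 had 8 each, Btg2 and Cd80 had 5, Cdkn1a had 4, and Aen, Ddb2 and Phlda3 had 0. The regions with 8 differed in length, at 1335 bases in Mdm2, 2316 in Ccng1, 4420 in Trp53inp1 and 6692 in Zmat3. Per kilobase, ATTTA thus ranged from 5.9925 in Mdm2 to 1.1955 in Zmat3 among these genes. The median count was 5 over the members and 1 over 12248 tested genes, of which 38.2% had none. These medians are not scaled by length, so whether the members hold more ATTTA for their length was not tested. A run of 4 successive CNN units, a repeat that has been described at ac4C sites in mRNA and was counted on the transcribed strand with overlaps, occurred at a median of 5.06 per kilobase in the members and 7.21 over all these genes. Phlda3 had the most, 12.5 per kilobase, and Cd80 the fewest, 2.84.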

How the data were processed

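Polyadenylated RNA of 24 libraries was sequenced, and the deposited values are raw counts of read pairs per gene. Per the file headers, the authors counted with featureCounts 1.6.3 in paired mode over exons, ignoring strand, with a GRCm39 annotation of Ensembl release 105 to which spike-in sequences were joined. STAR and DESeq2 are named in the submitters' processing notes, with no version given in the sources used here. Per the labels' protocols, libraries came from a directional kit. Names came from GENCODE M21, which named 52081 of 55414 gene identifiers. Groups came from the titles.

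Genes were kept by filterByExpr (minimum count 10) and scaled by TMM. One quasi-likelihood model of 12 groups in edgeR 4.0.16 (R 4.3.3) gave log2 changes, with SE taken from the F statistic, and calls at a Benjamini-Hochberg adjusted p under 0.05 over 16167 genes. CPM and RPKM were computed from the deposited counts, as mean ± SD of 2 libraries where so marked. Alternatives were size factors of the RLE kind, DESeq2 1.42.0, no filter on low counts, only the groups compared, replicate number as a block, each library left out in turn and, for changes with time, spike-in totals. On simulated counts for WT at 9 h over 0 h (16167 genes, 40 changed at each size) edgeR recovered 50% at a log2 change of -0.5, 70% at 0.5, 70% at -1, 77.5% at 1 and 80% at -2, with 14 false calls. Only 200 genes were changed there, and every other gene kept the same mean in all groups. In the data 6988 genes were called higher and 6225 lower in that comparison. The simulation therefore cannot give the rate of false calls where most genes change.

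The members, lists and tests were chosen with earlier results of these data known. Named genes are the 10 members, Trp53, Mdm4, Ppm1d and Nat10, up to 3 called rises and 3 called falls per list (largest in WT at 9 h, at least 5 CPM), and the 5 genes most like Cdkn1a and Mdm2. Marker genes of other cells were named after their values were seen. The labels call the libraries biological replicates without saying that cultures were grown separately. Replicates differed by more than sampling noise (chi-square per degree of freedom 1.43 to 2.26), so none were merged, and p-values reflect only how far such libraries vary, part of which may be technical. Counts carry no molecular identifiers, so depth covers counting error only.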

Additional observations from a re-analysis of the deposited data

Results flagged for a closer look

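The change from 0 h differed between a clone and WT in edgeR's test of the interaction for 9 of the 10 members in at least 1 of 4 tests (both clones, 3 and 9 h), beside 47.3% of all genes, and these values are clone minus WT in log2. A positive value means a larger gain in the clone.

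Trp53inp1 gained more in both clones: in KO1 0.25 (adjusted p = 2.83e-09) at 3 h and 0.20 (adjusted p = 1.24e-06) at 9 h, and in KO2 0.17 (adjusted p = 7.82e-05) at 3 h and 0.23 (adjusted p = 3.7e-08) at 9 h. Ccng1 gained more in KO2, by 0.13 (adjusted p = 1.4e-05) at 3 h and 0.092 (adjusted p = 0.00174) at 9 h. Cdkn1a gained more in KO2, by 0.27 (adjusted p = 1.06e-13) at 3 h and 0.20 (adjusted p = 4.29e-09) at 9 h. Mdm2 gained more in KO2 at 3 h, by 0.10 (adjusted p = 0.0161), which was not called when any of 4 single libraries was left out or when only the groups compared were fitted. Ddb2 gained more at 9 h, by 0.45 (adjusted p = 0.0157) in KO1 and 0.41 (adjusted p = 0.0278) in KO2, and its call was lost without any of 3 libraries in KO1 over WT and any of 5 in KO2 over WT.

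Aen gained less in both clones: in KO1 -0.19 (adjusted p = 0.00578) at 3 h and -0.34 (adjusted p = 3.4e-07) at 9 h, the 3 h value becoming -0.10 (adjusted p = 0.264) without KO1 replicate 1 at 0 h, and in KO2 -0.48 (adjusted p = 3.01e-12) at 3 h and -0.60 (adjusted p = 2.43e-17) at 9 h. Zmat3 gained less at 9 h, at -0.22 (adjusted p = 9.71e-06) in KO1 and -0.26 (adjusted p = 4.6e-07) in KO2. Phlda3 gained less in KO1, at -0.36 (adjusted p = 0.00107) at 3 h and -0.34 (adjusted p = 0.00148) at 9 h. Btg2 gained less in KO1 at 9 h, at -0.20 (adjusted p = 0.0109), beside an adjusted p of 0.052 with DESeq2 and 0.0539 without KO1 replicate 1 at 0 h. Phlda3 in KO2 at 9 h was called when WT replicate 2 at 0 h (-0.29) or at 9 h (-0.27) was left out (adjusted p = 0.0323 for each). Cd80 was not among them, but without WT replicate 1 at 0 h its difference at 9 h became -2.18 (adjusted p = 0.00237) in KO1 and -1.94 (adjusted p = 0.0129) in KO2. Single tests called 25.8% of all genes in KO1 and 24.7% in KO2 at 3 h, and 27.1% in KO1 and 25.9% in KO2 at 9 h.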

How the results depend on the processing

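Member counts kept within 1.5 times of those reported under RLE size factors, DESeq2, no filter on low counts and only the groups compared; the exceptions came from spike-in totals and from leaving out a library. With spike-in totals, 6 members and not 10 were called at 6 h against 0 h in KO2, and 3 and not 10 at 9 h against 3 h in WT. Leaving out 1 library gave 4 to 7 members for KO1 over WT at 9 h, and for KO2 over KO1 3 to 5 at 3 h, 2 to 4 at 6 h and 3 to 4 at 9 h; fewer samples enter those fits.

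The spike-in scale shifts every change of a genotype and time alike, and it turned the sign of these values. At 3 h in KO2 Ddb2 became -0.43 and Trp53 -0.64. At 6 h Ddb2 became -0.11 in KO1, -0.79 in KO2 and -0.64 in WT, Ppm1d -0.16, -0.85 and -0.43, Cdkn1a -0.18 in KO2 and -0.11 in WT, and Phlda3 -0.069 in KO2. At 9 h in KO2 Ddb2 became -0.76, Ppm1d -0.87, Cdkn1a -0.072 and Zmat3 -0.033, and in WT Ppm1d -0.19, Topors -0.21 and Rps7 -0.035. At 9 h against 3 h in KO2 Btg2 became -0.39, Phlda3 -0.34, Ddb2 -0.33, Aen -0.33, Mdm2 -0.39, Ccng1 -0.072, Ppm1d -0.065 and Cdkn1a -0.30. In WT over the same hours Btg2 became -0.12, Phlda3 -0.19, Zmat3 -0.18, Aen -0.073, Mdm2 -0.22 and Cdkn1a -0.10. Zmat3 in KO2 over those hours was 0.021 with RLE size factors and 0.020 with DESeq2; the cause was not tested.

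The replicate numbers were not taken to pair the libraries: over 66 pairs of groups, same-numbered deviations correlated at a median of 0.00787 (-0.0411 to 0.153), and the 3 pairs over 0.1 were those among KO2 at 3, 6 and 9 h (0.110 to 0.153). The replicate block moved no member count past 1.5 times and gained calls for Ddb2 in WT at 3 h over 0 h (0.21, adjusted p = 0.0388) and in KO2 over WT at 6 h (-0.23, adjusted p = 0.0473). For all genes, KO2 over KO1 at 9 h gave 2010 calls, and 1333 with DESeq2. Depth limits Cd80 at 0 h and Ddb2 throughout, and 120 to 257 spike-in counts limit the WT spike-in scale.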
